A study of Rattus rattus with 24 samples.

Results

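The genes that carry a cell from G1 into S phase were followed across rat oligodendrocyte precursor cell (OPC) cultures: the D cyclins Ccnd1, Ccnd2 and Ccnd3, the E cyclins Ccne1 and Ccne2, the kinases Cdk2, Cdk4 and Cdk6, and the pocket proteins Rb1 and Rbl1. They were chosen by symbol in the annotation of the array, from probe sets that carry 1 symbol, and all 10 were measured, among 14217 genes in all. They had 14 probe sets, and where a gene had several, the one with the highest mean over the 24 arrays stood for it. OPCs were taken from the cortex of rat pups with beads against A2B5, expanded in PDGF, and then kept for 48 or 96 hours in a medium with DMSO vehicle (control), T3 at 45 nM, quetiapine at 1 µM, or both compounds at these doses (the combination). T3 is the active thyroid hormone, used to make OPCs differentiate, and quetiapine is an antipsychotic drug that was tested for the same use. Each of the 8 groups held 3 arrays, 1 from each of 3 biological replicates, and the replicate number names the cell preparation. All groups, control included, shared a B27 supplement that itself holds some T3, so the control is not free of hormone, and medium and treatment were renewed at 48 hours. The labels name the species as Rattus rattus, and the methods describe Sprague Dawley pups.

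D cyclins are made in response to growth factors and bind Cdk4 or Cdk6. These kinases phosphorylate the retinoblastoma protein Rb1 and its relative Rbl1 (p107), which in their unphosphorylated form hold E2F transcription factors in check. Freed E2F switches on genes of DNA synthesis, among them the E cyclins, which bind Cdk2 and complete the step into S phase. OPCs divide under PDGF and leave the cell cycle as they become oligodendrocytes, and Rbl1 is itself known as an E2F target.

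Values are log2 expression from the array, so that a difference of 1 is a doubling, and levels were compared between groups for the same probe set only. Array medians lay between 6.43 and 6.51, and arrays of a group correlated across genes, which are not independent replicates, with r of 0.987 to 0.996. Of the 7 precursor markers measured, Pdgfra and Olig1 were at 11.2 and 13.0 or more on every array and Cspg4 ran from 6.93 to 9.42. Their mean at 96 hours was 11.44, 11.02 and 10.87 in control replicates 1 to 3 and 10.95, 10.71 and 10.54 in the combination, lower in each replicate, with overlapping groups. At 96 hours the mean of 9 mature oligodendrocyte markers was 10.07 to 10.49 in control, 11.59 to 12.72 in T3, 11.27 to 12.22 in quetiapine and 12.05 to 13.17 in the combination. The mean of 10 astrocyte markers ran from 10.37 to 10.86 in control, 10.03 to 10.73 with T3, 9.58 to 10.42 with quetiapine and 9.45 to 10.07 with the combination. Among them, over all arrays, Gfap ran from 12.65 to 13.77 and Aqp4 from 11.26 to 13.02, and Gjb6 from 3.16 to 3.64. The 10 neuron markers averaged 7.97 to 8.40 in control and 7.59 to 7.86 in the combination at 96 hours, and the 5 Schwann cell markers 6.67 to 6.83 and 7.68 to 8.20, without overlap in both cases. The 11 vascular and fibroblast markers averaged 4.67 to 4.87 on all arrays, and the 13 microglia markers averaged 6.69 in control replicate 2 at 48 hours against 5.21 and 5.44 in the other control arrays of that time. Log2 values have no 0, so no marker is listed at 0, and the part of other cell types in the results below was not tested. In cultures measured as a whole, fewer cells of a type and less RNA per cell cannot be told apart.

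At 96 hours more of these genes passed the test with the combination than with either compound: 6 of 10 fell (Ccnd2, Ccnd3, Ccne1, Ccne2, Cdk4 and Rbl1) and Rb1 rose, while Ccnd1, Cdk2 and Cdk6 did not pass the test. With T3 alone 4 fell (Ccne1, Ccne2, Cdk4 and Rbl1), and with quetiapine alone 1 fell (Ccnd3). The test was limma on the 12 arrays of a time point, called at an adjusted p under 0.05 over all 31042 probe sets. By the same test 20.0% of all genes fell and 15.2% rose with the combination, 8.08% fell and 6.58% rose with T3, and 3.04% fell and 4.21% rose with quetiapine. The median change of the 10 genes was −0.71 with the combination, −0.52 with T3 and −0.24 with quetiapine, beside medians of −0.01, −0.02 and −0.01 over all genes. The 3 treatments share the control arrays, so their counts are not independent of one another.

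The cell preparations differed, and the fit above leaves those differences in its spread. With the replicate number as a block, 8 members fell and 1 rose with the combination (27.6% and 19.9% of all genes), 5 fell with T3 (18.2%) and 4 fell with quetiapine (12.5%). The block added Ccnd1 and Cdk2 with the combination, Ccnd2 with T3, and Ccnd2, Ccne1 and Cdk4 with quetiapine. Without T3 replicate 2 the T3 count was 2, and without control replicate 1, control replicate 2 or quetiapine replicate 1 the quetiapine count was 0. Only Cdk6 passed neither fit in any of the 3 comparisons at 96 hours.

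**Figure D1:**
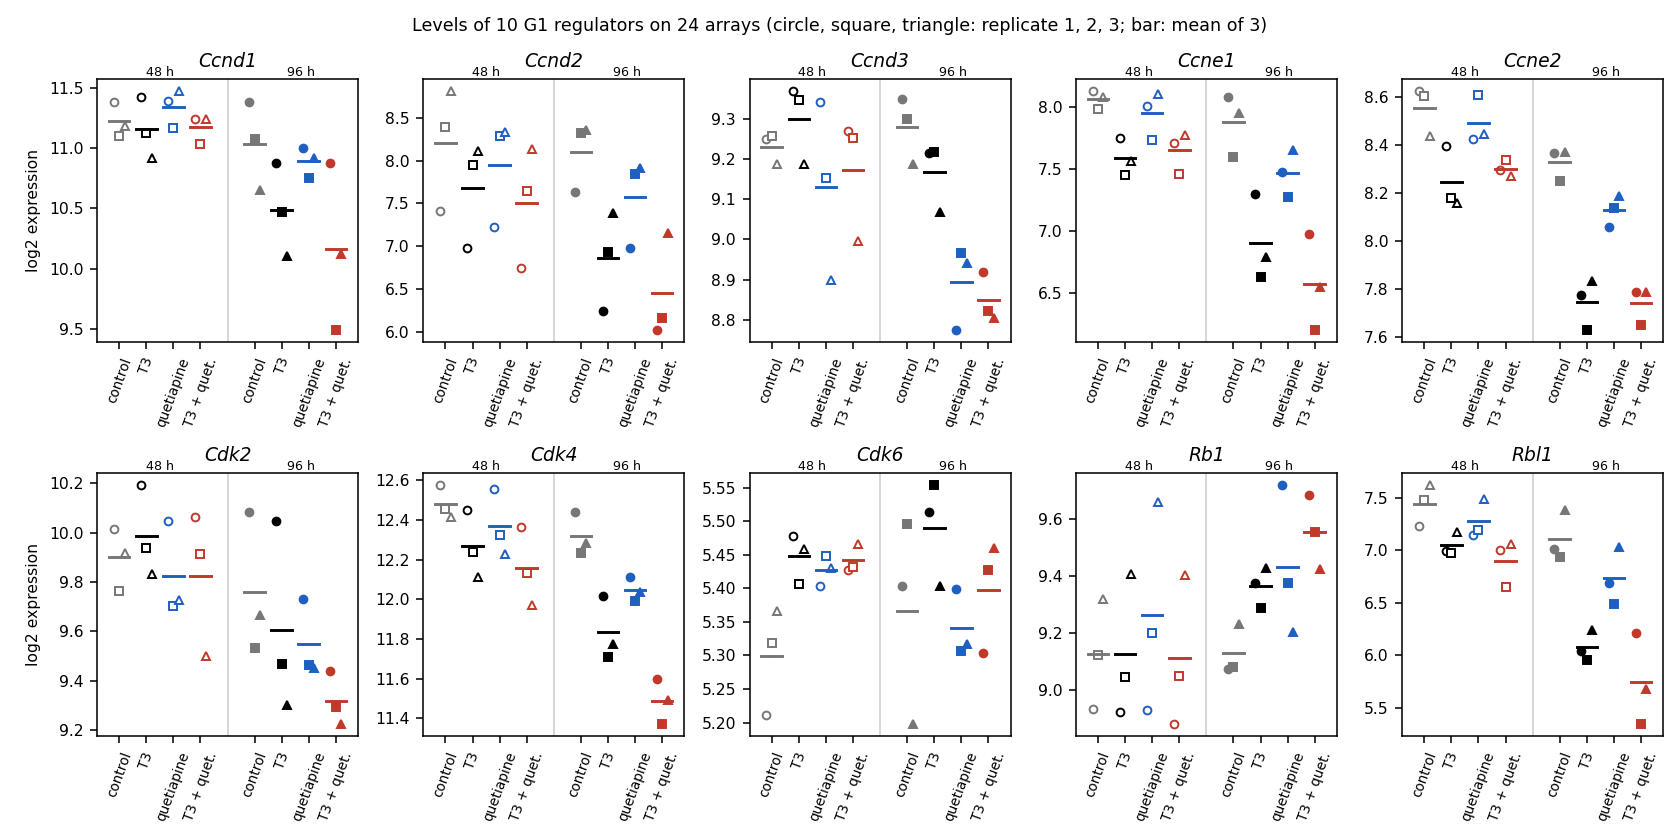
Log2 expression of the 10 genes (vertical axes, each with its own range) in the 4 treatments at 48 hours (open symbols) and 96 hours (filled symbols). Each symbol is 1 array, its shape gives the replicate and the bar is the mean of 3. Ccne1, Ccne2, Cdk4 and Rbl1 step down at 96 hours with T3 and the combination, Rb1 is highest in the combination, and Cdk6 stays between 5.20 and 5.55.

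Among the D cyclins Ccnd2 had the largest change. In control cultures at 96 hours its log2 level (probe set 1370810_at) was 7.64, 8.32 and 8.36 in replicates 1 to 3, and with the combination it was 6.02, 6.16 and 7.16. With T3 it was 6.24, 6.93 and 7.39, and with quetiapine 6.97, 7.84 and 7.91. All arrays of the combination and of T3 lay below all control arrays, whereas those of quetiapine overlapped with control. Replicate 1 was the lowest array of every one of these groups, and it also stood apart in several marker means. In control, T3, quetiapine and the combination the astrocyte marker mean was lowest in replicate 1 (10.37, 10.03, 9.58 and 9.45). The mature oligodendrocyte mean was lowest there too (10.07, 11.59, 11.27 and 12.05). The precursor mean was highest there (11.44, 11.04, 11.25 and 10.95), and the part of cell types was not tested. The fall of Ccnd2 with the combination was −1.66 (SE 0.38), a 3.16-fold decrease, with an adjusted p of 0.00678 in limma. The change with T3 was −1.25 (SE 0.38, adjusted p = 0.0558 in limma), just short of the test, and with the block its adjusted p was 0.00046. For quetiapine it was −0.53 (SE 0.38), with limma adjusted p of 0.494 and, with the block, 0.0457.

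Compared within each preparation, Ccnd2 was lower in every treated array than in its own control. The combination differed from the control of the same replicate by −1.62, −2.16 and −1.20, and T3 by −1.39, −1.39 and −0.97. Quetiapine differed by −0.66, −0.48 and −0.45. The T3 call without a block also changed with single arrays: the adjusted p in limma was 0.0425 without quetiapine replicate 1, 0.0499 without T3 replicate 3 and 0.0365 without replicate 3 of the combination.

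Ccnd3 was the only D cyclin past the test with quetiapine without the block, while Ccnd2 passed with the block as well. Its control levels at 96 hours (1369935_at) were 9.35, 9.30 and 9.19, against 8.77, 8.97 and 8.94 with quetiapine, 8.92, 8.82 and 8.80 with the combination, and 9.21, 9.22 and 9.07 with T3. The arrays of quetiapine and of the combination were all below the control arrays, and those of T3 overlapped with control. The fall was −0.38 (SE 0.08, adjusted p = 0.0197 in limma) with quetiapine and −0.43 (SE 0.08, adjusted p = 0.0024) with the combination. With T3 the difference was −0.11 (SE 0.08, adjusted p = 0.454 in limma). The quetiapine call was lost without control replicate 1, control replicate 2 or quetiapine replicate 1, where the adjusted p reached at most 0.0798, and the combination call held when any of the 12 arrays was left out. Quetiapine and T3 did not differ past the test for Ccnd3 (−0.27 for quetiapine less T3, limma adjusted p = 0.115), but did with the block (adjusted p = 0.0479).

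Ccnd1, the cyclin most often used to read growth factor signalling, was low in the combination but spread widely. Control arrays at 96 hours were at 11.39, 11.08 and 10.65 (1371643_at), and the combination was at 10.88, 9.49 and 10.12. T3 gave 10.88, 10.47 and 10.11 and quetiapine 11.00, 10.75 and 10.92. Replicate 1 of the combination lay above control replicate 3, so the groups overlapped. The change was −0.88 (SE 0.31) with the combination, with a limma adjusted p of 0.0561 without and 0.00767 with the block. Left out one at a time, control replicate 3 gave an adjusted p of 0.0465 in limma and replicate 1 of the combination 0.00576. The other Ccnd1 probe sets, 1383075_at and 1371150_at, changed by −0.94 and −0.71 with the combination and passed the test without a block (limma adjusted p = 0.0114 and 0.0457). With T3 the 3 probe sets gave −0.55, −0.58 and −0.53, and with quetiapine −0.15, −0.07 and 0.08, none of them past the test.

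The E cyclins fell with T3 and with the combination. Ccne1 (1373530_at) was at 8.09, 7.60 and 7.96 in control at 96 hours, at 7.30, 6.63 and 6.79 with T3, at 7.47, 7.28 and 7.65 with quetiapine and at 6.97, 6.20 and 6.55 with the combination. Arrays of T3 and of the combination were all below the lowest control array, and quetiapine replicate 3 was above it. The change was −0.98 (SE 0.22, adjusted p = 0.0157 in limma) with T3 and −1.31 (SE 0.22, adjusted p = 0.00113) with the combination, which is a 2.48-fold decrease. With quetiapine it differed by −0.41 (SE 0.22, limma adjusted p = 0.33), and with the block the adjusted p was 0.0398. The T3 call was lost without control replicate 1 or 3 or T3 replicate 2 or 3, with a limma adjusted p of at most 0.0737, and the call for the combination held in all 12 omissions.

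Ccne2 fell by about the same amount with T3 and with the combination. Its control arrays at 96 hours (1374359_at) were at 8.37, 8.25 and 8.37, those of T3 at 7.78, 7.63 and 7.83, those of quetiapine at 8.06, 8.14 and 8.19 and those of the combination at 7.79, 7.65 and 7.79. T3 and the combination overlapped, quetiapine lay between them and control, and none of the 3 overlapped with control. The fall was −0.58 (SE 0.08, adjusted p = 0.00117 in limma) with T3 and −0.59 (SE 0.08, adjusted p = 0.000308) with the combination, and both held in 12 of 12 omissions. Quetiapine differed by −0.20 (SE 0.08), which passed neither without nor with the block (limma adjusted p = 0.18 and 0.0618). Within preparations the combination differed from control by −0.58, −0.60 and −0.58. The dimmer Ccne2 probe set 1391681_at, below the median probe set of the array, changed by −0.57 with the combination (limma adjusted p = 0.0216) and by −0.31 with T3 (0.278).

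**Figure D2:**
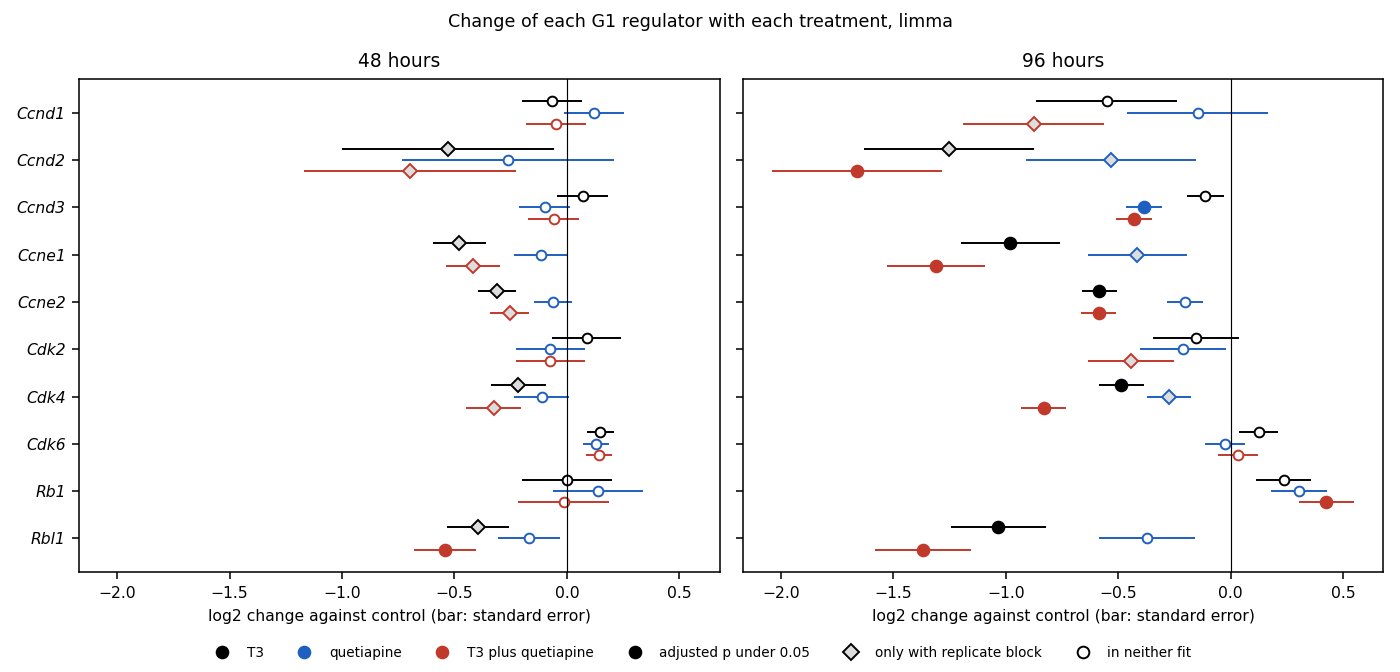
Log2 change of each gene against control (horizontal axis, with its standard error) at 48 hours on the left and 96 hours on the right, for T3, quetiapine and the combination. Filled circles passed limma at an adjusted p under 0.05, grey diamonds passed only with the replicate block, and open circles passed neither. At 96 hours the combination has 6 filled circles to the left of 0 and 1, Rb1, to the right.

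Of the kinases, Cdk4 changed and Cdk6 did not pass any test. Cdk4 (1369950_at), a partner of the D cyclins, was at 12.44, 12.24 and 12.28 in control at 96 hours. It was at 12.02, 11.71 and 11.77 with T3, at 12.11, 11.99 and 12.04 with quetiapine, and at 11.60, 11.37 and 11.49 with the combination. Every treated array was below every control array, and every array of the combination was below every array of the single compounds. The change of Cdk4 was −0.49 (SE 0.10, adjusted p = 0.00988 in limma) with T3 and −0.83 (SE 0.10, adjusted p = 0.000125), a 1.78-fold decrease, with the combination. Both calls held in 12 of 12 omissions. With quetiapine the difference was −0.27 (SE 0.10), with a limma adjusted p of 0.141 without and 0.0133 with the block. Within preparations the combination differed from control by −0.84, −0.86 and −0.79.

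Cdk2 (1394320_at), the partner of the E cyclins, was at 10.09, 9.53 and 9.67 in control at 96 hours and at 9.44, 9.29 and 9.22 with the combination. The groups did not overlap, but the highest array of the combination was close to the lowest control array. The difference was −0.44 (SE 0.19), with a limma adjusted p of 0.108 without and 0.00616 with the block, and the other probe set, 1378874_at, gave −0.41 (0.0883 and 0.009). T3 and quetiapine gave −0.15 and −0.21, with limma adjusted p values of 0.694 and 0.606. Cdk6 (1375757_at), the other D cyclin partner, lay between 5.20 and 5.55 on all 24 arrays, under the median probe set of the array. Its differences at 96 hours were 0.12 for T3, −0.02 for quetiapine and 0.03 for the combination, whose 95% interval of −0.16 to 0.23 is that of a dim probe set and sets no bound on the transcript. At 48 hours Cdk6 arrays of T3 (5.41 to 5.48), quetiapine (5.40 to 5.45) and the combination (5.43 to 5.47) all lay above control (5.21 to 5.37). So did 9.04%, 6.58% and 13.7% of all genes, and these Cdk6 differences passed neither fit.

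The pocket proteins moved in opposite directions. Rbl1 (1380692_at) was at 7.01, 6.94 and 7.39 in control at 96 hours, at 6.04, 5.96 and 6.24 with T3, at 6.69, 6.49 and 7.04 with quetiapine and at 6.21, 5.34 and 5.68 with the combination. Arrays of T3 and of the combination were all below those of control and of quetiapine. The change of Rbl1 was −1.03 (SE 0.21, adjusted p = 0.0107 in limma) with T3 and −1.37 (SE 0.21, adjusted p = 0.000713), a 2.58-fold decrease, with the combination. With quetiapine it differed by −0.37 (SE 0.21, adjusted p = 0.371 in limma). The T3 call was lost without T3 replicate 2 (limma adjusted p = 0.0505), and that of the combination held in all 12 omissions.

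Rb1 (1388185_at) was at 9.07, 9.08 and 9.23 in control at 96 hours and at 9.69, 9.55 and 9.42 with the combination, with no overlap. T3 gave 9.38, 9.29 and 9.43, all above control, and quetiapine gave 9.72, 9.37 and 9.20, of which replicate 3 lay among the control arrays. Rb1 rose by 0.43 (SE 0.12, adjusted p = 0.0225 in limma) with the combination. The differences with T3 (0.24) and quetiapine (0.30) passed neither fit, with limma adjusted p of 0.267 and 0.189. The call for the combination was lost without control replicate 1 or 2 or without replicate 1 or 2 of the combination, with an adjusted p of at most 0.0736, and in a single fit over 24 arrays it was 0.0674. On the beta-actin controls of the array the 3′ signal exceeded the 5′ signal, a gap that widens as RNA degrades, by 0.643 to 0.665 in control, 0.674 to 0.766 in T3 and 0.704 to 0.768 in the combination at 96 hours. On the GAPDH controls the gap was −0.107 to −0.0565 in control, −0.0756 to −0.0267 in T3 and −0.132 to −0.0920 in the combination, so the controls did not move together, and their part in the changes was not tested.

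Over the set, 7 members had all arrays of the combination below all control arrays at 96 hours and 1 had them above, beside 25.3% and 20.3% of all genes. For T3 these were 5 and 1 (19.0% and 14.4% of genes), and for quetiapine 3 and 0 (14.3% and 13.3%).

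**Figure D3:**
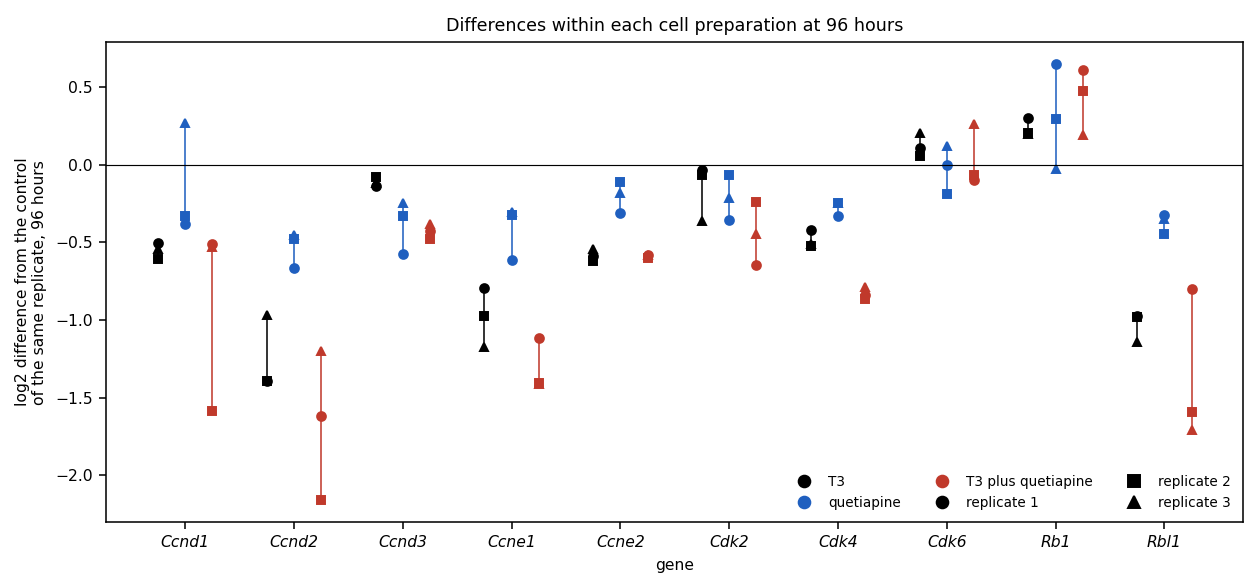
Log2 difference of each treated array at 96 hours from the control array of the same replicate (vertical axis) for the 10 genes, with 1 symbol for each of 3 replicates and a line over their range. Cdk4 and Ccne2 with the combination span −0.86 to −0.79 and −0.60 to −0.58, while Ccnd1 spans −1.59 to −0.51.

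At 48 hours few of these changes were past the test. T3 and quetiapine called 0 of 10 members in limma, with 4 and 0 at an unadjusted p under 0.05 (0.366% and 0.0492% of all genes fell, 1.06% and 0.134% rose). The 4 with T3 were Ccne1, Ccne2 and Rbl1, which were lower, and Cdk6, which was higher by 0.15. The combination called 1, Rbl1, beside 4.22% of genes that fell and 3.12% that rose. Rbl1 was at 7.23, 7.48 and 7.62 in control and at 7.001, 6.65 and 7.06 in the combination, with no overlap. The change was −0.54 (SE 0.14, adjusted p = 0.0467 in limma). That call held in 2 of 12 omissions only. The limma adjusted p was 0.173 without control replicate 3 and 0.149 without replicate 2 of the combination, with changes of −0.45 and −0.42. Without control replicate 2, where the microglia markers were highest, it was 0.114, with a change of −0.53. The part of microglia was not tested. With the block, 5 members fell at 48 hours with T3 (7.51% of genes) and 5 with the combination (16.2%), each time Ccnd2, Ccne1, Ccne2, Cdk4 and Rbl1, and 0 with quetiapine.

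The sizes at 48 hours were smaller. Ccne1 was at 8.13, 7.99 and 8.09 in control, 7.75, 7.46 and 7.57 with T3 and 7.72, 7.46 and 7.78 with the combination, so that the treated arrays lay below control. The differences were −0.48 (SE 0.12) with T3 and −0.42 (SE 0.12) with the combination, with limma adjusted p of 0.101 and 0.0669 without the block and 0.00257 and 0.00208 with it. Ccnd2 differed by −0.53 and −0.70 (SE 0.47), where control replicates alone ran from 7.41 to 8.82, and the adjusted p went from 0.741 and 0.455 to 0.00375 and 0.000331 with the block. Ccne2 differed by −0.31 and −0.25, Cdk4 by −0.22 and −0.33, and Rbl1 with T3 by −0.40. With quetiapine the 10 differences lay between −0.26 (Ccnd2) and 0.14 (Rb1).

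Quetiapine and T3 were then compared directly. At 96 hours Ccne2 was higher with quetiapine by 0.38 (SE 0.08, adjusted p = 0.0313 in limma), 1 of 10 members beside 1.01% of all genes higher and 2.30% lower. This call was lost when any array of either compound was left out, with an adjusted p of at most 0.145, and when the mean of both Ccne2 probe sets stood for the gene (0.274). With the block, 4 were higher with quetiapine (Ccnd2 0.72, Ccne1 0.56, Ccne2 0.38 and Rbl1 0.66, beside 6.66% of genes) and Ccnd3 was lower (−0.27, 7.77%). At 48 hours 0 members passed limma and 2 had an unadjusted p under 0.05 (0.696% of genes higher and 1.46% lower), and with the block 1 passed, Ccne1, at 0.36 (adjusted p = 0.00923, 5.14% of genes).

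Adding quetiapine to T3 passed limma for 0 of 10 members at 96 hours, with 2 at an unadjusted p under 0.05 (1.29% of genes rose and 1.04% fell). With the block 2 fell, Ccnd3 (−0.32, limma adjusted p = 0.0754 without and 0.0254 with the block) and Cdk4 (−0.35, 0.101 and 0.00653), beside 8.86% of genes. Ccne2 differed by under 0.01 between the combination and T3 (SE 0.08). Adding T3 to quetiapine passed for 4 of 10 (4.87% of genes fell, 4.36% rose): Ccne1 (−0.90, adjusted p = 0.0328 in limma), Ccne2 (−0.39, 0.0162), Cdk4 (−0.56, 0.00804) and Rbl1 (−0.995, 0.0186) fell. Cdk4 held in 12 of 12 omissions, and the count was 2 without quetiapine replicate 2 or replicate 3 of the combination and 1 without quetiapine replicate 3 or replicate 2 of the combination. With the block Ccnd1 and Ccnd2 fell too (13.7% of genes). At 48 hours limma called 0 members for either addition. Quetiapine added to T3 had 0 at an unadjusted p under 0.05 (0% of genes rose and 0.0281% fell), and T3 added to quetiapine had 3 (0.992% rose and 0.331% fell), of which Ccnd2, Ccne1 and Rbl1 fell with the block (5.49%).

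The design crosses both compounds, so the combination can be set beside the sum of the single changes. At 96 hours the sum and the combination were −1.39 and −1.31 for Ccne1, −0.76 and −0.83 for Cdk4, −1.78 and −1.66 for Ccnd2, −1.41 and −1.37 for Rbl1, and 0.54 and 0.43 for Rb1. The widest gap relative to its error was that of Ccne2, with a sum of −0.78 against −0.59, an interaction of 0.20 (SE 0.11) and a 95% interval of −0.05 to 0.45. The interaction passed limma for 0 of 10 members at either time, 0 with the block and 0 at an unadjusted p under 0.05 (0.00703% of genes passed above 0 and 0.0422% below at 96 hours). The intervals were wide for some members, from −1.15 to 0.79 for Ccnd1 and −1.05 to 1.30 for Ccnd2, so departures from a sum of that size would not have been seen.

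**Figure D4:**
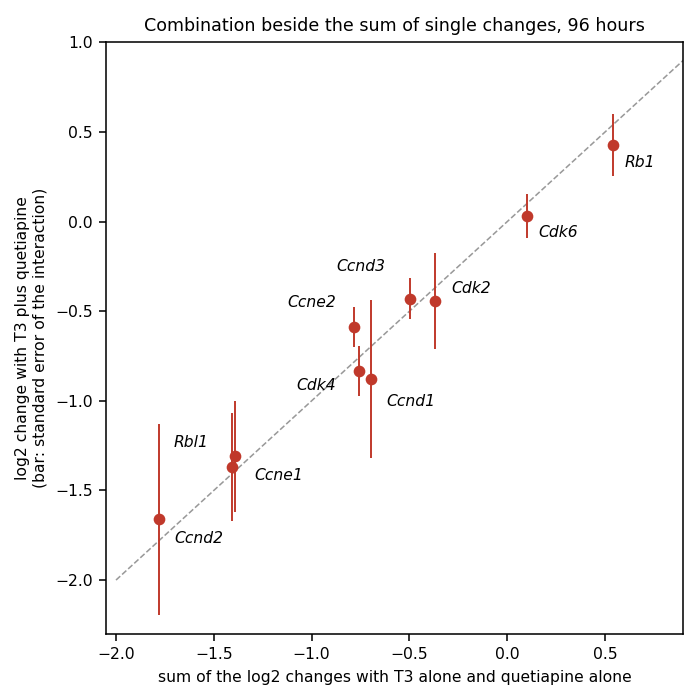
Log2 change with the combination at 96 hours (vertical axis) against the sum of the changes with T3 alone and quetiapine alone (horizontal axis) for the 10 genes. The bar is the standard error of the interaction and the dashed line marks equal values. Both axes share the control arrays. Ccne2 lies above the line by 0.20 and the others within 1 standard error of it.

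From 48 to 96 hours the control cultures changed for 0 of 10 members by limma over 24 arrays, with 1 at an unadjusted p under 0.05 (0.0141% of genes rose and as many fell), 0 with the block. In T3, 4 fell (4.97% of genes fell, 3.36% rose): Ccne1 (−0.69), Ccne2 (−0.50), Cdk4 (−0.43) and Rbl1 (−0.97). In quetiapine 1 fell (0.844% and 2.58%), Ccne2 (−0.37, adjusted p = 0.0155 in limma). In the combination 6 fell (15.9% and 11.3%): Ccnd1 (−1.01), Ccnd3 (−0.32), Ccne1 (−1.08), Ccne2 (−0.56), Cdk4 (−0.67) and Rbl1 (−1.16). Levels of 8 members were thus lowest in the combination at 96 hours and those of Rb1 highest there, among the 8 groups.

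The block raised these counts to 7 in T3 (Ccnd1, Ccnd2 and Cdk2 added, 15.3% of genes fell), 4 in quetiapine (Ccne1, Cdk4 and Rbl1 added, 7.53%), and 8 that fell (23.6%) with Rb1 risen (15.5%) in the combination. The count in T3 was 2 without T3 replicate 1 or 2 at 48 hours or T3 replicate 2 or 3 at 96 hours, and that in quetiapine was 0 without quetiapine replicate 2 at 48 hours or quetiapine replicate 1 or 2 at 96 hours. The effect of the combination itself differed between the times for 1 member, Ccne1 (−0.89, SE 0.26, adjusted p = 0.0477 in limma, beside 3.26% of genes below and 4.91% above), and for 7 members with the block (12.5%). The effects of T3 and of quetiapine alone differed between times for 0 members in limma with and without the block, with 2 and 0 at an unadjusted p under 0.05 (0.0563% and 0.134% of genes passed above 0 and 0% below).

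In the order of the 8 group means most neighbours overlapped. The exceptions were quetiapine at 48 hours and control at 96 hours, and quetiapine and T3 at 96 hours, for Ccne2; quetiapine and the combination at 96 hours for Cdk2; T3 and the combination at 96 hours for Cdk4; and quetiapine and T3 at 96 hours for Rbl1. For Ccnd1, Ccnd2, Ccnd3, Ccne1, Cdk6 and Rb1 every neighbouring pair overlapped, so only groups further apart in the order are separated.

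The genes around the set were read from lists, described by counts. Among all genes 20.0% fell and 15.2% rose with the combination at 96 hours, 8.08% and 6.58% with T3, and 3.04% and 4.21% with quetiapine. Of 9 E2F and DP factors measured, 7 fell with the combination at 96 hours, 2 with T3 and 0 with quetiapine. E2f2, an activating E2F, changed by −1.61 (SE 0.28, adjusted p = 0.00144 in limma) with the combination and by −1.22 (0.0177) with T3. Tfdp1, a partner of many E2Fs in binding DNA, changed by −0.53 (0.000702) and −0.37 (0.0153). E2f5 and E2f6, which act as repressors, changed by −0.59 and −0.40 with the combination. Of 7 genes of p130 and the MuvB complex with its partners, 3 fell with the combination, 2 with T3 and 0 with quetiapine: Foxm1, a factor for mitotic genes, changed by −1.17, Mybl2 by −0.43 and the MuvB subunit Lin52 by −0.35, and Lin54 was at −0.31 (limma adjusted p = 0.129). With the block these lists had 8 and 5 that fell with the combination (27.6% of all genes) and 7 and 4 with T3 (18.2%).

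The 8 CDK inhibitors measured did not move together. Cdkn1a (p21) rose by 1.86 (SE 0.24, adjusted p = 0.000214 in limma) with the combination and by 1.23 (0.00811) with T3, with 0.21 (0.694) for quetiapine. Cdkn1c (p57) changed by −1.53 (SE 0.14, adjusted p = 2.79e-05 in limma) and −1.33 (0.000261), with 0.13 (0.696) for quetiapine. Cdkn2b (p15), which binds Cdk4 and Cdk6, changed by −0.35 with the combination, and Cdkn3, a phosphatase that acts on CDKs, was at −1.34 (limma adjusted p = 0.103). In all 1 rose and 2 fell with the combination, 1 and 1 with T3, and 0 with quetiapine, so the counts for the combination are near the 15.2% and 20.0% of all genes.

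Among 16 genes of kinase activation and cyclin turnover, 2 rose and 2 fell with the combination, 1 rose with T3 and 0 passed with quetiapine. The shares for the combination are below the 15.2% and 20.0% of all genes, so the list as a whole did not stand out and its genes are named only as single values. The risen genes were the F-box genes Fbxo31 (1.65, adjusted p = 0.00195 in limma) and Fbxo4 (0.45, 0.0239), both described as acting in cyclin D turnover. The fallen ones were Cks2 (−2.07, 0.0189) and Cks1b (−0.76, 0.0272), small subunits bound by CDKs. With T3 Fbxo31 rose by 1.20 and Fbxo4 was at 0.41 (limma adjusted p = 0.0751).

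Of 21 genes of S phase measured, 17 fell and 1 rose with the combination, 12 fell with T3, and 0 fell and 1 rose with quetiapine, and the median changes were −1.07, −0.81 and −0.27. Mcm7, a subunit of the replicative helicase, changed by −1.21 with the combination and −0.81 with T3. Pcna, the polymerase clamp, changed by −0.52 and −0.38, Cdc45 by −0.89 and −0.65, and Ung, which removes uracil from DNA, by −0.93 and −0.63. All 5 genes of the S and M cyclins with Cdk1 fell with the combination and 0 with T3 or quetiapine: Ccna2 by −2.12, Cdk1 by −1.86, Ccnb2 by −1.84 and Ccnf by −1.02, while T3 gave −1.24, −1.10, −1.09 and −0.68. With the block all 5 fell with T3 as well (18.2% of all genes), and 0 with quetiapine (12.5%).

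Of 13 genes of mitogen signalling, 2 rose and 3 fell with the combination, 1 and 1 with T3, and 1 and 0 with quetiapine. For the combination this is near the 15.2% and 20.0% of all genes in the fit without the block. Fos rose by 2.38 and Jun by 0.94 with the combination, and the FGF and MAPK targets Etv5 and Etv1 changed by −1.67 and −1.02. Fos and Etv5 passed with T3 (1.96 and −1.29), and Jun passed with quetiapine (0.94, adjusted p = 0.0224 in limma). With the block 8 fell with the combination, beside 27.6% of all genes, and 6 with T3, beside 18.2%. In that fit the fallen share of the list was above that of all genes.

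Among 5499 genes whose group means span at least 0.5, those most like each member were found by Pearson's r over the 8 group means, which share all arrays and are given as a description. Rbl1 was closest to Pcna, Rfc3 and Mtfr2 (r from 0.998 down) and Cdk4 to Kif11, Map3k1 and Casp2 (0.999 to 0.998). Ccne1 was closest to Ruvbl1, Gas5 and Kansl2, Ccne2 to Nid1, Smc4 and Lmnb2, and Ccnd2 to Commd7, Dnajc9 and Zfp384, with the first of each at 0.998, 0.998 and 0.997. Ccnd3 was closest to Ppic, Cfap418 and Gas2 (first at 0.983), and Rb1, with levels running the other way, to Secisbp2l, Nbea and Manba (first at 0.991).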

How the data were processed

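RNA of 24 rat OPC cultures was hybridised to 1-colour Affymetrix arrays. The authors deposited log2 values, from RMA, which corrects background, equalises the arrays by quantiles and summarises each probe set (RMA version: not given in the sources used here). Replicate numbers pair the arrays: the deposited design gives each of 3 preparations to every condition, and deviations of arrays with the same number correlated at 0.430 to 0.777 (48 hours) and 0.309 to 0.690 (96 hours). Limma 3.58.1 in R 4.3.3 was fitted without a replicate term (the methods name none) and, as an alternative, with the number as a block, within each time, and over 24 arrays for differences between times. P values were moderated and adjusted by Benjamini and Hochberg over 31042 probe sets, after removal of 57 controls. The script was tested on simulated data. All 10 members were named, and up to 4 genes of each other list by smallest adjusted p for the combination at 96 hours. Members and lists were chosen with earlier results of these data known. Array number limits the precision. Alternatives were the block, a fold limit of 1.5, median centring, mean probe sets, bright probe sets, 1 fit over all arrays and leaving out each array. Sequences, coordinates and day 0 cultures were not used here.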

Additional observations from a re-analysis of the deposited data

Results flagged for a closer look

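The effect of the combination on Ccne1 differed between the times by a test of the difference itself: it was −0.42 at 48 hours and −1.31 at 96 hours, a change of −0.89 (SE 0.26, adjusted p = 0.0477 in limma, 3 arrays a group). It was the only one of the 10 genes past that test without the replicate block. The call held in 4 of 24 omissions of a single array, with adjusted p in limma from 0.00723 to 0.146, and with the block its adjusted p was 0.00102.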

How the results depend on the processing

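No change of direction was found in any alternative for a called gene. Numbers of the 10 members past the test changed as follows. Shares of all genes were counted only for the fits with and without the block. Counts under the other alternatives therefore have no share of all genes beside them and say nothing on how the members differ from all genes. The combination against control at 96 hours gave 7 without these alternatives and 9 with the replicate block. It gave 8 each with mean probe sets and with bright probe sets. With a fold limit of 1.5 it gave 5, without Ccnd3 and Rb1. Of the other counts the larger shifts are listed. With the replicate block, T3 against control at 48 hours gave 5, the combination against control at 48 hours 5, quetiapine against control at 96 hours 4, quetiapine against T3 1 at 48 and 5 at 96 hours, the combination against T3 at 96 hours 2, the combination against quetiapine at 48 hours 3, 96 against 48 hours 7 in T3 and 4 in quetiapine, and the change of the effect of the combination 7; the block took away no call. With a fold limit of 1.5, the combination against quetiapine at 96 hours and T3 against control at 96 hours gave 2 each, and quetiapine against T3 at 96 hours, the combination at 48 hours and quetiapine at 96 hours gave 0, since small changes are left out by construction. Centring arrays on their medians gave 0 for the change of the effect of the combination. The mean of all probe sets gave 0 for quetiapine against T3 at 96 hours and 2 for the change of the effect. One fit over 24 arrays gave 2 for quetiapine against T3 at 96 hours and 0 for the combination at 48 hours. For the combination against control at 96 hours that fit kept 7, with Rb1 lost and another member gained. Bright probe sets alone gave 3 for the change of the effect, 1 for the combination against T3 at 96 hours and 2 for the combination at 48 hours. Leaving out 1 array at a time gave, at 96 hours, 2 to 5 for T3, 0 to 1 for quetiapine, 6 to 8 for the combination, 0 to 1 for quetiapine against T3 and 1 to 5 for the combination against quetiapine; at 48 hours 0 to 1 for the combination; between times 2 to 5 in T3, 0 to 1 in quetiapine and 4 to 8 in the combination; and 0 to 4 for the change of the effect, with 4 reached without replicate 1 of the combination at 96 hours. Where a cause is not named, the cause was not tested. Dim probe sets such as that of Cdk6 limit what can be seen.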
